A study of Mus musculus with 4 samples.

Results

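The genes described here encode MAP kinase phosphatases of the Dusp family and the Sprouty (Spry) and Spred inhibitors, which act as brakes on MAP kinase signalling. The 10 members are Dusp1, Dusp2, Dusp4, Dusp5, Dusp6, Dusp10, Spry1, Spry2, Spred1 and Spred2, taken by name through the RefSeq accession of each array probe, out of 22362 genes and unnamed transcripts tested. Each member had 1 probe on the array, so no second probe checks any value below. RNA came from mouse bone marrow LMPP (lymphoid-primed multipotent progenitors), which can form both lymphoid and myeloid cells. All animals were IRF8-GFP knockin mice, in which green fluorescent protein reports IRF8, a transcription factor of monocyte and dendritic cell development. IRF8-GFP positive LMPP (2 arrays) were compared with IRF8-GFP negative LMPP (2 arrays). Both groups were gated as lineage-, IL-7R-, Sca-1+, CD117+, CD150-, CD34+ and CD135+ cells and differed in the gate only by the GFP signal. The labels give no age, sex or treatment, and leave unsaid whether replicate arrays represent different animals, so the spread behind each p-value may be technical only.

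Growth factor receptors such as KIT and FLT3 switch on the small GTPase Ras, which passes the signal through Raf and MEK to the kinase ERK, while stress and cytokines act mostly through the related kinases p38 and JNK. Dusp phosphatases remove phosphate from both the threonine and the tyrosine that keep a MAP kinase active, whereas Sprouty and Spred proteins act earlier, between receptor and Raf. Several of these genes are themselves switched on by ERK, which makes them a negative feedback loop and a common readout of recent pathway activity.

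The promoters of 3 members are shown because Dusp1 and Spry1 had the clearest differences and Dusp6 held the only joint Ets and IRF match among the members. They are RefSeq sequences of build GRCm38.p6, from 250 bases before to 50 after the transcription start. Capitals mark matches to the motifs named after them. Dusp1 lies on the minus strand at chr17:26508423-26508722, Spry1 on the plus strand at chr3:37639697-37639996 and Dusp6 on the plus strand at chr10:99262981-99263280.
Dusp1: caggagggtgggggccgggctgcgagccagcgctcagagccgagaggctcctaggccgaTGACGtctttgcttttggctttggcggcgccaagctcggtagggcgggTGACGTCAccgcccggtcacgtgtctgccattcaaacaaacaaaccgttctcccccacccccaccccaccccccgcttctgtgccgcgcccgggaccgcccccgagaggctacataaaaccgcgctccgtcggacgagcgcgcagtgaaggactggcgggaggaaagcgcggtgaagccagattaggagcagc
Spry1: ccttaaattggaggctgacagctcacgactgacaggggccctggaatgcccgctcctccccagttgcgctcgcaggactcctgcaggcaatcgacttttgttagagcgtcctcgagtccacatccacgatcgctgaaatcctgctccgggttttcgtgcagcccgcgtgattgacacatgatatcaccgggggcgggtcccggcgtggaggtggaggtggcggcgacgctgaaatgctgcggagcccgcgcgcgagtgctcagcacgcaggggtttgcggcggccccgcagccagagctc
Dusp6: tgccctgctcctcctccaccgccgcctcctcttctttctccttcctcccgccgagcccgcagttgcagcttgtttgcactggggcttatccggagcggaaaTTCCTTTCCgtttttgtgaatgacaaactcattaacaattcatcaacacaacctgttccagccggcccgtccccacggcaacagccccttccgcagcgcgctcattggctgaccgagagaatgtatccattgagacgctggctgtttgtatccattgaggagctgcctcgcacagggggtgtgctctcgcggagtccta

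Motifs were searched on both strands in the promoters of 9 members and in all 32851 RefSeq promoters of the same length. No promoter sequence was at hand for Dusp4, so it was not searched. A match is a description of letters and not a site. The cyclic AMP response element TGACGTCA was found in 1.79% of all promoters and, among the members, in that of Dusp1, where it begins 143 bases before the start. The shorter cyclic AMP motif TGACG, which the full element contains, was in the promoters of Dusp1, Dusp2, Dusp5 and Spred2 and in 20.81% of all. The Ets and IRF composite GGAANNGAA, a form of element bound jointly by PU.1 and an IRF protein, was in that of Dusp6, 149 bases before the start, and in 8.24% of all. The Ets core GGAAGT was in the promoters of Dusp5 and Spred2 and in 23.77% of all. The IRF element GAAANNGAA (8.56% of all promoters) and the AP-1 site TGANTCA (7.81%) were in none of the 9. The Spry1 promoter held none of the 6 motifs.

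Levels are given as the log2 of the probe's signal minus the log2 of its array's 75th percentile signal, so 0 is the 75th percentile itself. Brightness depends on the probe, so levels are compared between groups and not between genes. Irf8, the gene of the sort, was 3.55 higher on this scale in positive LMPP (SE 0.06, limma adjusted p = 0.000802). Kit, Ly6a (Sca-1), Cd34 and Flt3 (CD135), positive in the labelled gate, were well above background on all 4 arrays. Slamf1 (CD150), negative in the gate, was in neither group well above background on both arrays. The gate is on protein and the array measures RNA, so they need not match. Though the gate is IL-7R-, Il7r RNA was well above background on all 4 arrays. It was 5.26-fold higher in positive LMPP (limma adjusted p = 0.000835). Between 29631 and 30266 of 59305 spots were well above background on the positive arrays, and 33506 and 33681 on the negative arrays. The median log2 difference of all genes was 0.16 rather than 0, and it ranged from -0.14 with spike-in scaling to 0.20 with normexp background correction, so small differences depend on the scaling. It rose with brightness, with -0.02 for the dimmest and 0.38 for the brightest when genes were split into 4 brightness groups. The counts of higher and lower genes were 8611 and 4779 as reported, 10026 and 3583 with normexp background correction, and 3299 and 8102 with spike-in scaling. They were 4382 and 7253 with the percentile taken over bright probes, 5383 and 6337 after centring on the median difference, 5471 and 5776 with cyclic loess, 6059 and 5466 with quantile normalization, and 6035 and 5487 in the authors' deposited matrix.

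No member was higher in IRF8-GFP positive LMPP and 4 were lower: the phosphatase genes Dusp1 and Dusp4 and the Sprouty genes Spry1 and Spry2. By limma with Benjamini-Hochberg adjustment, 4 of 10 members passed as lower, where 21.4% of all genes did, and 0 of 10 passed as higher, where 38.5% of all genes did. At an unadjusted p under 0.05 the counts were also 4 lower and 0 higher, beside 23.4% and 42.2% of all genes. Dusp4 and Spry2 entered the test only through the negative arrays, so they could hardly differ in the other direction. Of the 8 members above background on all 4 arrays, Dusp1 and Spry1 were lower, or 2 of 8, beside 21% of the 20073 genes under that filter, which is close to the background. None of the 8 was higher, beside 45.3% of those genes. With spike-in scaling 8 of 10 members were lower, beside 36.2% of all genes, and 0 higher, beside 14.8%. With the percentile taken over bright probes 8 were lower, beside 32.4%, and 0 higher, beside 19.6%. With normexp background correction 2 were lower, beside 16%, and 0 higher, beside 44.8%. Both positive arrays lay below both negative arrays for 6 members, beside 29.8% of all genes, and above them for 0 members, beside 52.4% of all genes. The median log2 difference of the 10 members was -0.09, against 0.16 for all genes, and 9 of the 10 lay below 0.16. The dimmest of the 4 brightness groups held Dusp4, Dusp10 and Spry2 (median -0.02, with 995 of 5591 genes higher and 1455 lower). The next held Dusp1, Dusp5, Spry1, Spred1 and Spred2 (median 0.00091, with 1372 of 5590 higher and 1780 lower). The members' -0.09 is closer to those medians than to 0.16. Over the scalings the members' median ran from -0.45 (cyclic loess) to 0.01 (normexp background correction). These 10 genes were chosen with results of these arrays known, so the counts describe them and test nothing about the family.

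**Figure D1:**
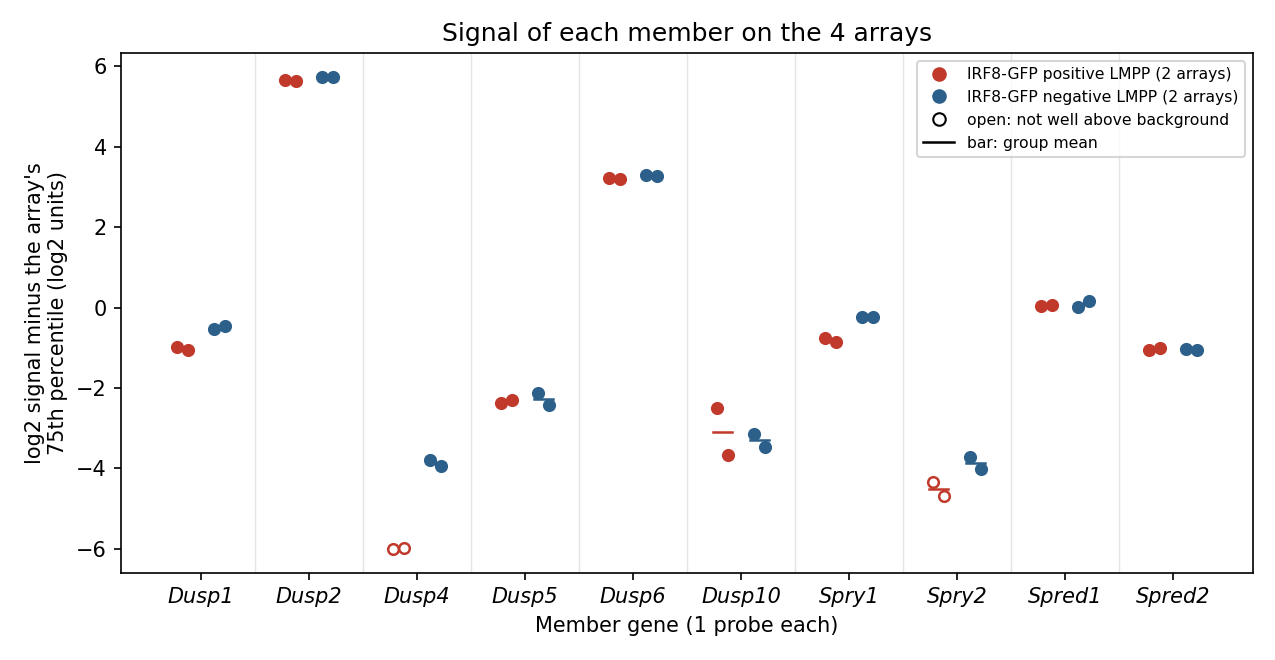
Signal of each member on each array, as log2 signal minus the array's 75th percentile, for 2 positive arrays (red, left) and 2 negative arrays (blue, right); bars are group means and open circles are arrays not well above background. Dusp1 and Spry1 separated by group well above background, Dusp4 and Spry2 had no positive array above background, and the Dusp10 values of -2.51 and -3.67 in positive LMPP lay on either side of both negative values.

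Dusp1 encodes a nuclear phosphatase that is quickly induced by growth factors and stress and acts on p38, JNK and ERK. Its level was -0.97 and -1.04 on the positive arrays, against -0.54 and -0.45 on the negative arrays. The groups did not overlap, and all 4 arrays were well above background. The log2 difference was -0.51 (SE 0.07, 95% interval -0.69 to -0.33, limma adjusted p = 0.00566), which is 1.42-fold lower in positive LMPP. Dusp1 was called lower under all 20 alternative settings, with differences from -0.82 to -0.32. Limma adjusted p-values reached 0.0446, the value without negative replicate 2. For every member some of these settings were no real check. A threshold of 0.1 could not lose a call, and with 1 probe a gene other ways of handling probes could move only the p-value. Relative to the median of all genes the difference was -0.67. The brightness group that held Dusp1 had a median of 0.00091, so against genes of like brightness the difference stays near -0.51.

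Spry1 encodes a Sprouty protein that restrains receptor tyrosine kinase signalling upstream of ERK. Its level was -0.77 and -0.84 in positive LMPP, and -0.23 on both arrays of negative LMPP. The gap between the groups was many times the gap between arrays of a group. The log2 difference was -0.58 (SE 0.06, 95% interval -0.74 to -0.41, limma adjusted p = 0.00346), or 1.49-fold lower in positive LMPP. It was called lower under all 20 alternatives too, with differences from -0.89 to -0.47 and adjusted p-values up to 0.0355. Among the members above background in both groups Spry1 had the largest fall under the reported scaling, and no member passed as higher. With quantile normalization Dusp2 fell further (-0.56, against -0.53 for Spry1), as it did in the deposited matrix values (-0.57 against -0.53). The named genes closest to it over the 4 arrays, by the root mean square distance of values centred per gene, were Prrg2 (distance 0.0045, log2 difference -0.57), Xaf1 (0.011, -0.60) and Gstm1 (0.012, -0.58). With 2 arrays a group this measure ranks genes mainly by the size of their difference.

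Dusp4 encodes a nuclear, inducible phosphatase of ERK and JNK, and its signal was near background in both groups. The processed signal was 4.96 and 6.62 on the positive arrays, neither well above background, against 31.7 and 35.4 on the negative arrays, both above it. Before background subtraction the spots had a median brightness of 81 and 96 in positive LMPP, and 95 and 114 in negative LMPP, over a local background of 51 to 55. The unsubtracted values therefore overlapped to within 1 unit, while the subtracted ones were far apart. Both sets are given without scaling between arrays. The 75th percentile signals were 318 and 414.2 on the positive arrays, and 438 and 542.9 on the negative arrays. Dusp4 passed as lower (limma adjusted p = 0.00118) with a fitted log2 difference of -2.12 (SE 0.08), but with the positive arrays below background the processed signals bound the change only as at least 1.10-fold. That bound sets the mean of the negative arrays against the higher, on each positive array, of the probe's own signal and the dimmest signal well above background. It carries no error, and its log2 value of -0.13 stands beside a standard deviation of 0.11 between the negative arrays. With normexp background correction the difference was -0.01 and the call was lost (adjusted p = 0.938), while Dusp4 kept its call under 18 of 19 alternatives.

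Spry2, a close relative of Spry1 with the same place in the pathway, was also dim. Its level was -4.34 and -4.69 in positive LMPP, neither array well above background, against -3.72 and -4.02 in negative LMPP. The groups did not overlap, but the gap between the nearest arrays was similar to the gap between arrays of a group. It passed narrowly as lower (log2 difference -0.64, SE 0.17, limma adjusted p = 0.0347), with a bound of at least 1.09-fold. In log2 that bound is -0.13, smaller than the standard deviation of 0.21 between the negative arrays. The call was kept under 8 of 19 alternatives, and normexp background correction turned the difference to 0.17 (adjusted p = 0.245). Before background subtraction, and without scaling between arrays, the medians overlapped, at 100 and 103.5 in positive LMPP, and 102.5 and 114 in negative LMPP. The call was also lost without positive replicate 2 (0.0646), negative replicate 1 (0.133) or negative replicate 2 (0.0635). For Dusp4 and Spry2 only these bounds can be given, and they hold for the scanner's background subtraction and not under normexp. They are point values without an error, and not an assured smallest fall.

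**Figure D2:**
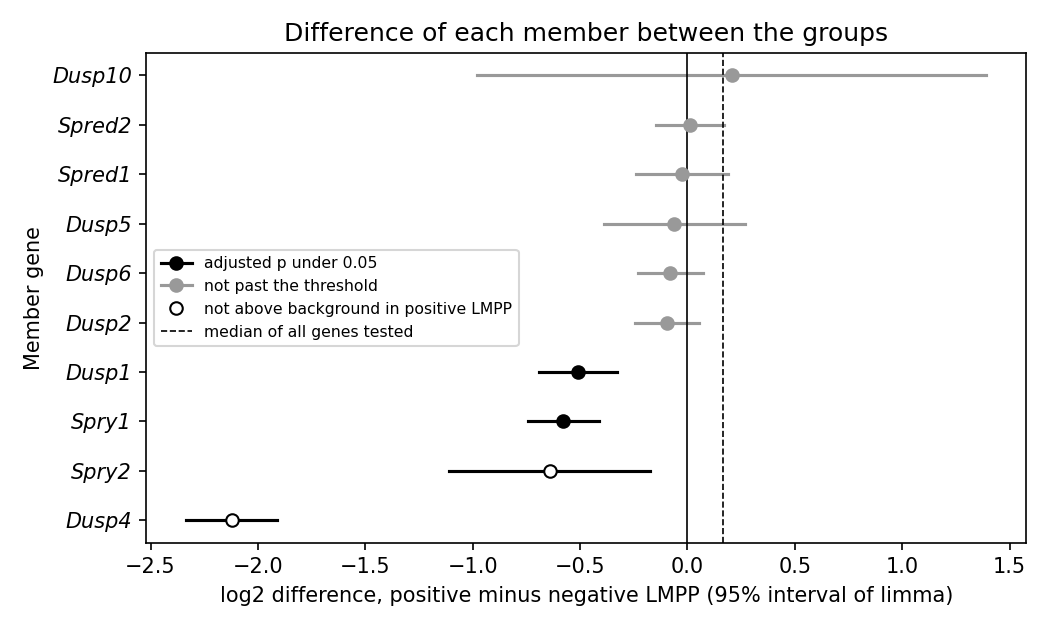
Log2 difference of each member, positive minus negative LMPP, with the 95% interval of limma; black marks pass an adjusted p of 0.05, grey marks do not, and the dashed line is the median of all genes at 0.16. The intervals of Dusp1 and Spry1 end at -0.33 and -0.41, while the open circles of Dusp4 and Spry2 are fitted values with no positive array above background, and give no size.

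Dusp2 and Dusp6 were the members with the brightest probes, both in the brightest of the 4 groups. Dusp6 encodes the cytoplasmic phosphatase specific to ERK and is a classical ERK-induced gene, and Dusp2 encodes a nuclear phosphatase found mostly in blood cells. Dusp2 had 5.66 and 5.63 in positive LMPP, against 5.74 and 5.75 in negative LMPP. Dusp6 had 3.23 and 3.20 in positive LMPP, against 3.31 and 3.29 in negative LMPP. For both genes the positive arrays lay slightly below the negative ones without overlap, yet neither passed. The log2 difference was -0.10 for Dusp2 (SE 0.05, 95% interval -0.25 to 0.05, limma adjusted p = 0.196). It was -0.08 for Dusp6 (SE 0.05, 95% interval -0.23 to 0.07, limma adjusted p = 0.265).

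How these 2 genes are called rests on the scaling. Genes in the brightest group had a median log2 difference of 0.38, and Dusp2 and Dusp6 lay below that value. Both passed as lower under 6 of the 7 other scalings. For Dusp2 the difference was -0.56 with quantile normalization (adjusted p = 0.00433), -0.57 in the deposited matrix values (0.00424), -0.50 with cyclic loess (0.00534) and -0.40 with spike-in scaling (0.0102). For Dusp6 the same 4 scalings gave -0.36 (0.0108), -0.37 (0.0107), -0.40 (0.00965) and -0.39 (0.013). The exception was normexp background correction, with -0.14 for each gene and adjusted p-values of 0.119 and 0.12. No scaling gave either gene a difference above 0.

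**Figure D3:**
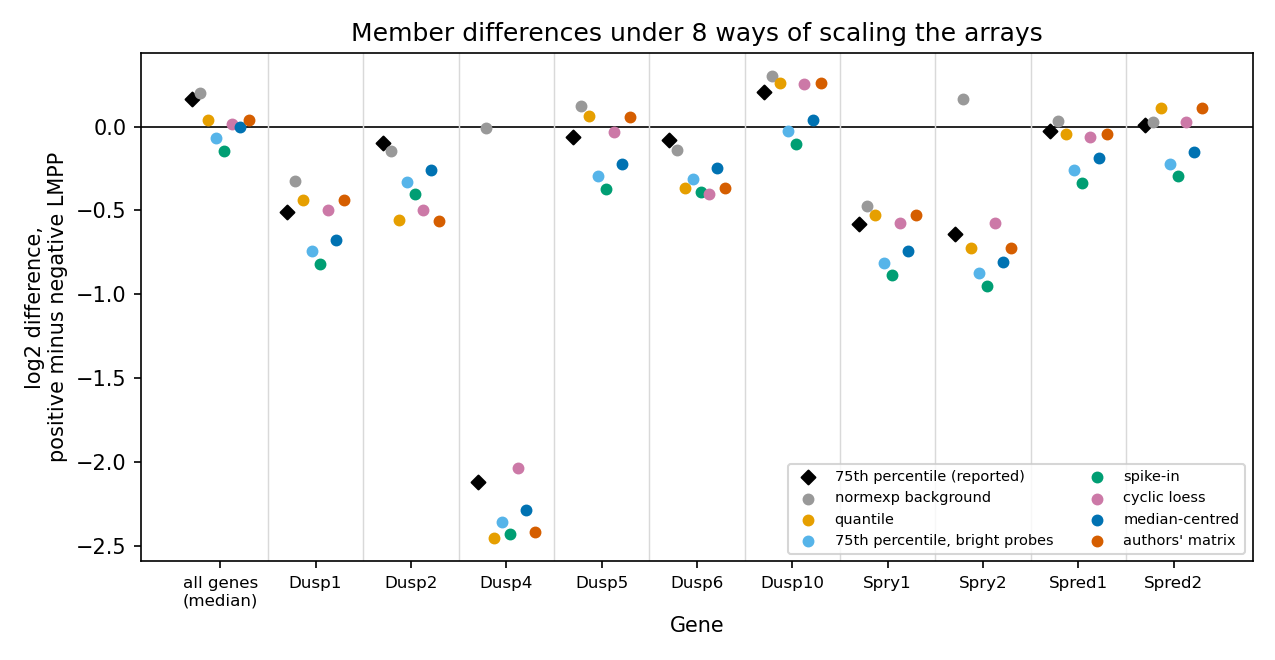
Log2 difference of the median gene and of each member, positive minus negative LMPP, under the reported scaling (black diamonds) and 7 others (coloured circles). Dusp1, Spry1, Dusp2 and Dusp6 stayed below 0 under all 8, Dusp4 was close to 0 only with normexp background correction, and Dusp5, Dusp10, Spry2, Spred1 and Spred2 lay on both sides of 0.

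The remaining phosphatase genes did not pass. Dusp5, which encodes a nuclear phosphatase specific to ERK, had -2.36 and -2.29 in positive LMPP, between the -2.12 and -2.41 of negative LMPP. Its log2 difference was -0.06 (SE 0.12, 95% interval -0.39 to 0.27, limma adjusted p = 0.677), and it took either sign over the scalings. Dusp10, a phosphatase of p38 and JNK rather than ERK, had -2.51 and -3.67 on the positive arrays, against -3.13 and -3.46 on the negative arrays. Its positive arrays differed by more than any other member's, and the interval of its log2 difference of 0.21 (SE 0.43) ran from -0.98 to 1.39 (limma adjusted p = 0.70). Without positive replicate 1 the difference was -0.38 (adjusted p = 0.126), and without positive replicate 2 it was 0.79 and passed as higher (0.0232), so 1 array decided its direction.

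The Spred genes, whose products hold down Ras signalling at the membrane, in part by recruiting neurofibromin, did not pass either. Spred1 had 0.05 and 0.07 in positive LMPP, inside the range of 0.01 to 0.17 in negative LMPP. The log2 difference of Spred1 was -0.03 (SE 0.08, 95% interval -0.24 to 0.19, limma adjusted p = 0.793). Spred2 had -1.05 and -1.002 in positive LMPP, against -1.03 and -1.05 in negative LMPP, with a log2 difference of 0.01 (SE 0.06, 95% interval -0.15 to 0.17, limma adjusted p = 0.872). These intervals leave room for changes of up to 0.24 in Spred1 and 0.17 in Spred2 under this scaling. With spike-in scaling both passed as lower, Spred1 at -0.33 (adjusted p = 0.023) and Spred2 at -0.30 (0.0168), and likewise with the percentile taken over bright probes, at -0.26 (0.0457) and -0.22 (0.0332).

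Of 20 further Dusp, Spry and Spred genes on the array 12 were tested, with 4 higher, 3 lower and a median of 0.05, close to the 38.5% higher and 21.4% lower of all genes. With spike-in scaling 2 were higher and 6 lower, beside 14.8% and 36.2% of all genes. Dusp8, called lower as reported, had no positive array above background, so it could hardly be called higher. Dusp16, a phosphatase of JNK and p38, was lower (log2 difference -1.16, SE 0.05), whereas Dusp7, an ERK phosphatase related to Dusp6, was higher (0.83, SE 0.06), as was Dusp9, another ERK phosphatase (0.96, SE 0.15). These 3 kept their direction and call under all 7 other scalings. Their limma adjusted p-values were 0.0014 for Dusp16, 0.00846 for Dusp9 and lower than that for Dusp7. The atypical family member Dusp12 (0.33, SE 0.07, adjusted p = 0.0197) was called under 1 of the 7. Spry3, Spry4 and Spred3 were among the 8 genes not above background on both arrays of either group.

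The genes that the members act on, or that ERK induces, were counted in the same fit, beside 38.5% higher and 21.4% lower of all genes. With spike-in scaling those shares of all genes were 14.8% and 36.2%. Of 18 ERK target and immediate early genes tested 3 were higher and 8 lower, with a median of -0.32. Fos and Phlda1, among the 8 lower, had no positive array above background, so they could hardly be called higher. Without Fos and Phlda1 the middle values of that list were -0.13 (Etv4) and -0.04 (Mcl1). With spike-in scaling 2 genes of the full list were higher and 11 lower. Egr1 (log2 difference -1.40, SE 0.07), Jun (-1.36, SE 0.07) and Ier3 (-1.25, SE 0.12) fell, while the cyclin D1 gene Ccnd1 rose (0.94, SE 0.06). Of 29 tested genes from Ras to ERK 13 were higher and 7 lower (median 0.18), among them Hras at 0.75 (SE 0.07), the adaptor genes Gab3 at -1.33 (SE 0.09) and Gab1 at -0.86, and the MEK kinase gene Map3k8 at -0.83. With spike-in scaling the Ras to ERK counts turned to 2 higher and 10 lower. Of 18 p38 and JNK kinases 10 were higher and 2 lower (median 0.22), among them Mapkapk2 at 1.29 (SE 0.06) and Mapkapk3 at 0.78, kinases downstream of p38, and Map3k5 at 0.80, while the p38 gene Mapk12 was at -1.38 (SE 0.08). With spike-in scaling these turned to 3 and 5. Of 23 other inhibitors of Ras and ERK 7 were higher and 5 lower (median 0.11), with the Ras GTPase activator genes Rasal1 (1.44, SE 0.09) and Rasa4 (1.04, SE 0.07) higher, as was the adaptor gene Dok3 (0.78), while Dok2 was lower (-0.66). With spike-in scaling they counted 3 and 11. Of 18 upstream growth factor receptors 8 were higher and 7 lower (median -0.12). Among them were the M-CSF receptor gene Csf1r at 2.74, the interleukin-7 receptor gene Il7r at 2.40 and the interleukin-6 signal chain gene Il6st at 1.54 (SE 0.07). Tek, among the 7 lower, had no positive array above background. With spike-in scaling the receptors counted 7 higher and 9 lower. Fos, Phlda1, Etv4, Mcl1 and Tek aside, limma adjusted p-values ran from 0.000802 (Csf1r) to 0.00663 (Map3k5). With the same genes set aside, all genes named in this paragraph kept direction and call under the 7 other scalings. Kept probes of 1 gene differed in size for Gab3 (-1.33 to -0.59), Map3k5 (0.47 to 0.80) and Csf1r (0.66 to 2.91).

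**Figure D4:**
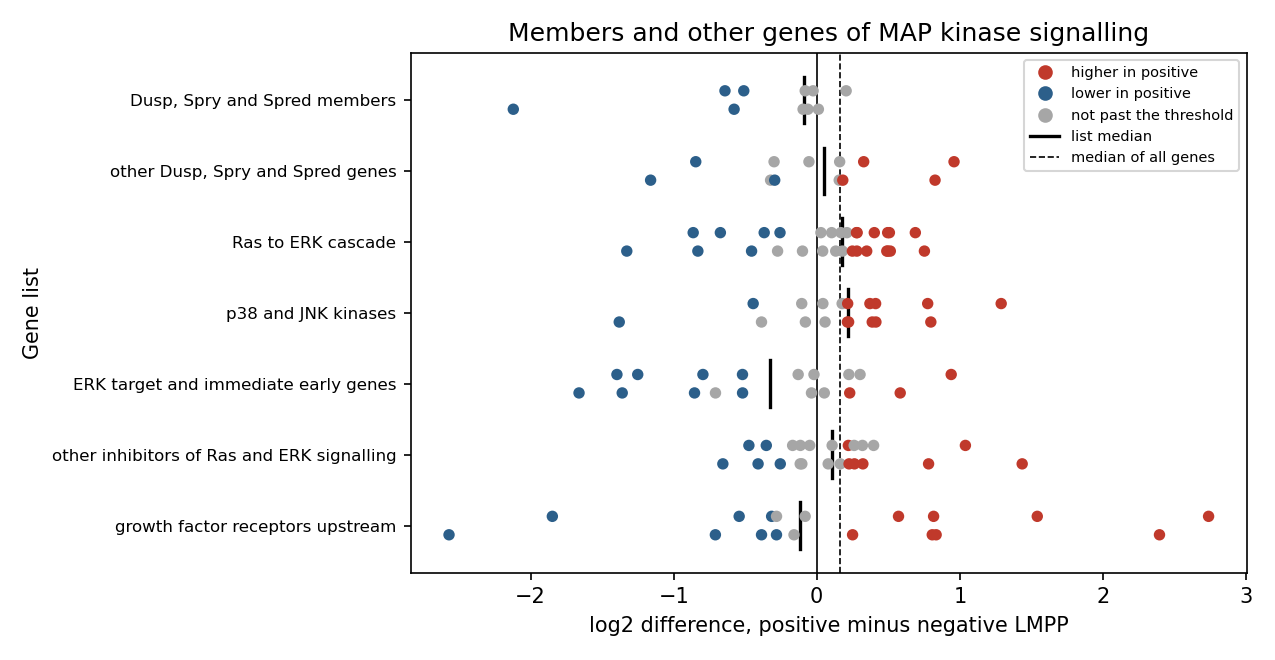
Log2 difference, positive minus negative LMPP, of each tested gene in the 10 members and 6 other lists of the pathway; red passed as higher, blue as lower and grey not, black bars are list medians and the dashed line is the median of all genes. The members and the ERK target and immediate early genes have medians of -0.09 and -0.32, below the 0.16 of all genes, and the members have no red mark. Both lists include genes with no positive array above background: Dusp4 and Spry2 among the members, and Fos and Phlda1 among the targets.

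Markers of several other cell types differed between the groups, and their part in the members' differences was not tested. The shares of all genes were 38.5% higher and 21.4% lower. Sums below are of linear signals relative to the 75th percentile of the array. Stem cell markers were lower in 10 of 11 tested, with sums of 28.9 and 30.1 in positive LMPP, against 81.5 and 84.5 in negative LMPP. Erythroid and megakaryocyte markers were lower in 10 of 11, with 13.1 and 13.6 against 30.8 and 33.1. Monocyte and neutrophil markers were higher in 8 of 13 and lower in 2, with 948 and 876 against 269 and 268. Dendritic cell markers were higher in 5 of 8 and lower in 1, with 141 and 121 against 162 and 117. Most of these sums came from Siglech, which did not pass and whose kept probes disagreed (-0.20 to 2.61), and the other 7 summed to 25.0 and 29.3 against 19.5 and 19.2. Those of B, T and NK cells were higher in 3 of 8, close to the share of all genes. With spike-in scaling 0 of them were higher, where 14.8% of all genes were. Their sums were 57.3 and 56.3 against 48.0 on both negative arrays. Ms4a1, Ebf1, Pax5, Cd3d, Cd8a and Ncr1 were not above background on both arrays of either group. Of 8 stroma and endothelium markers 1 was higher and 2 lower, with 25.5 and 21.1 against 20.4 and 18.5. Cdh5, Pdgfra and Alpl were likewise not above background on both arrays of either group. Of the markers called lower, Mecom, Hoxb5, Tek and Gp1ba had no positive array above background. Clec9a, called higher, had no negative array above it. These markers entered the test through 1 group only, so they could hardly differ in the other direction. Fewer cells of a type and less RNA per cell cannot be told apart in such bulk samples.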

How the data were processed

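The signal used was the processed intensity of each spot, after background subtraction and detrending by Agilent Feature Extraction 10.7.3.1, per the file headers. Median spot and background intensities and background flags come from the same scans, per the file headers. The deposited matrix holds linear intensity values that the authors quantile normalized, judging from its columns, which share 1 set of sorted values; how it was centred is not stated. Control and outlier spots were left out. Spots were averaged per probe, taken to log2 and centred on the array's 75th percentile. Probes well above background on both arrays of 1 or both groups were kept, and the brightest kept probe stood for a gene. Accessions were matched to RefSeq names of GRCm38.p6 (26756 of 55669 probes, 20280 symbols), without coordinates, since the array was designed on another build. The comparison was fitted over all 22362 genes with limma 3.58.1 (lmFit, eBayes, no block) in R 4.3.3, two-sided, with an adjusted p threshold of 0.05. The smallest two-sided p that exact permutation of these 4 arrays allows is 0.333. All arrays lie on 1 slide scanned on 1 day, and no spot was saturated. The number of arrays limits the precision. The fit was also run on simulated arrays made with its own estimated spread, which cannot check the scaling or signals near background.

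Members and lists were chosen with earlier results of these data known. Named are all members, label checks, and up to 4 genes per pathway list past the threshold with the largest change among those above background in both groups, of which 1 is not reported here. Alternatives were a replicate block, leaving out each array, 7 scalings or value sources (spike-in scaling uses 7 control probes; normexp has an offset of 50), filters on dim probes, variance models, probe handling and thresholds. Protein and probe sequences were not used here.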

Additional observations from a re-analysis of the deposited data

How the results depend on the processing

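Dusp1 and Spry1 kept direction and call under all 20 alternatives, as did Irf8. Not all 20 could change a member's result. A threshold of 0.1 could not lose a call, and other ways of handling probes left the difference of a member's 1 probe the same. The labels do not say what the shared replicate numbers mark, and same-numbered arrays deviated together only weakly (correlation 0.097 over the tested genes). With the replicate block 9094 genes were higher and 4852 lower, with 0 and 4 members, and no member's call changed. The count of lower members was 8 with spike-in scaling and with the percentile over bright probes (36.2% and 32.4% of all genes were lower), 2 with normexp background correction (16%) and 2 among the 8 members above background on all arrays (21%). Leaving out 1 array gave 3 to 4 lower and 0 to 1 higher members, the 1 being Dusp10 without positive replicate 2. The members' median was -0.40 with quantile normalization, in the matrix values and with spike-in scaling, -0.32 over bright probes, -0.45 with cyclic loess, -0.25 after median centring and 0.0099 with normexp, and -0.24 to -0.092 with 1 array left out.

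The count of higher genes was 4382 over bright probes, 3299 with spike-in scaling, 5471 with cyclic loess, 5383 after median centring, 14564 of 37140 without a filter and 5002 at an adjusted p of 0.01. That of lower genes was 7253, 8102 and, at 0.01, 2859. With 1 array left out they were 4760 to 8002 and 2852 to 4772.

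Signs turned for Dusp10 (-0.029 over bright probes, -0.10 with spike-in scaling, and -0.38 to 0.79 with 1 array left out) and for Spred2 (-0.22, -0.30, -0.15 after median centring, and -0.015 to 0.038). They turned for Dusp5 (0.12 with normexp, 0.061 with quantile normalization, 0.059 in the matrix values, and -0.21 to 0.085), for Spred1 (0.034 with normexp, and -0.11 to 0.055) and for Spry2 (0.17 with normexp). The cause was not tested. Signals near background limit Dusp4, Spry2 and Dusp10.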
